A study of Mus musculus with 6 samples.

Results

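The genes described here are 10 genes of brown adipocytes and of thermogenesis, taken by symbol from the deposited expression table: Ucp1, Adrb3, Dio2, Prdm16, Ppargc1a, Ebf2, Cidea, Plin5, Elovl3 and Fabp3. All 10 were found, each as 1 row among 41064 genes, and 9 of them passed the filter on low counts, as did 20132 genes in all. RNA was sequenced in 6 mouse aorta samples, 3 with the genotype label JOSD2 KO and 3 labelled WT, and both groups carry the treatment label Ang II (angiotensin II), a peptide hormone that constricts vessels and raises blood pressure. JOSD2 is a deubiquitinating enzyme of the Josephin family. Age, sex, dose, duration, the segment of aorta taken and the handling of the fat around it are not given in the labels. The tissue label is aorta, while the extraction protocol in the labels speaks of an adipose type.

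Brown adipocytes burn fatty acids to make heat. Noradrenaline from sympathetic nerves acts on the beta-3 adrenergic receptor, cyclic AMP rises, lipid droplets are broken down, and the fatty acids that are released activate the uncoupling protein UCP1, which lets protons leak across the inner mitochondrial membrane. The identity of these cells is set by transcription regulators such as PRDM16, EBF2 and PGC-1alpha, and the deiodinase encoded by Dio2 makes active thyroid hormone inside them. In mice, the fat around the thoracic aorta resembles brown fat, while that around the abdominal aorta is closer to white fat. Several of these genes are also active in other cells of the vessel: Prdm16 is known from arterial endothelium, and Dio2 was found in human vascular smooth muscle cells.

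Josd2, the targeted gene, had 21.67, 19.90 and 21.38 CPM in the libraries labelled knockout, against 29.90, 30.99 and 29.34 CPM in wild type libraries (log2 fold change -0.52, SE 0.07, edgeR adjusted p = 0.000244). CPM are counts scaled to a common library size with TMM factors, which align the bulk of genes between libraries. With library totals the value was -0.11, without a call. Since the transcript was retained, the samples are called labelled knockout, and each direction rests on that label. The libraries summed to between 63612353 and 75886761 counts, and peaks at multiples of 4 among low counts point to a unit of about 4 counts per read pair, which no source states. Mitochondrially encoded genes took 23.8% to 23.9% of counts in labelled knockout and 36.2% in wild type libraries. The results depend on the scaling: with library totals in place of TMM, the median gene lay 0.41 log2 units higher in the labelled knockout, and 0.03 higher once mitochondrial genes and their nuclear copies were left out. All changes below are on the TMM scale unless stated. The labels do not say whether the 3 samples of a group were separate animals, so the p-values cover only how far these samples varied, which may be technical variation.

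In labelled knockout libraries, Dio2, Adrb3 and Cidea were higher and Prdm16 was lower on the TMM scale. In such bulk samples, fewer cells of a type and less RNA per cell cannot be told apart. Ucp1, Ppargc1a, Plin5, Ebf2 and Fabp3 did not pass edgeR's quasi-likelihood test at an adjusted p of 0.05. That makes 4 of 9 tested genes called, 44.4%, while 24.7% of all tested genes were called. In the upward direction it was 3 of 9 (33.3%), against 13.2% of all tested genes, and downward 1 of 9 (11.1%), against 11.5%. Values of the groups did not overlap for 4 of the 9 genes (44.4%), which is near the 41.1% among all tested genes. The median log2 fold change of the 9 genes was 0.50, and that of all tested genes was 0.00 (-0.003). With library totals the split was 5 higher and 0 lower, since Prdm16 lost its call and Ebf2 and Fabp3 gained one, and all genes split into 9425 higher and 768 lower in place of 2658 and 2323.

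**Figure D1:**
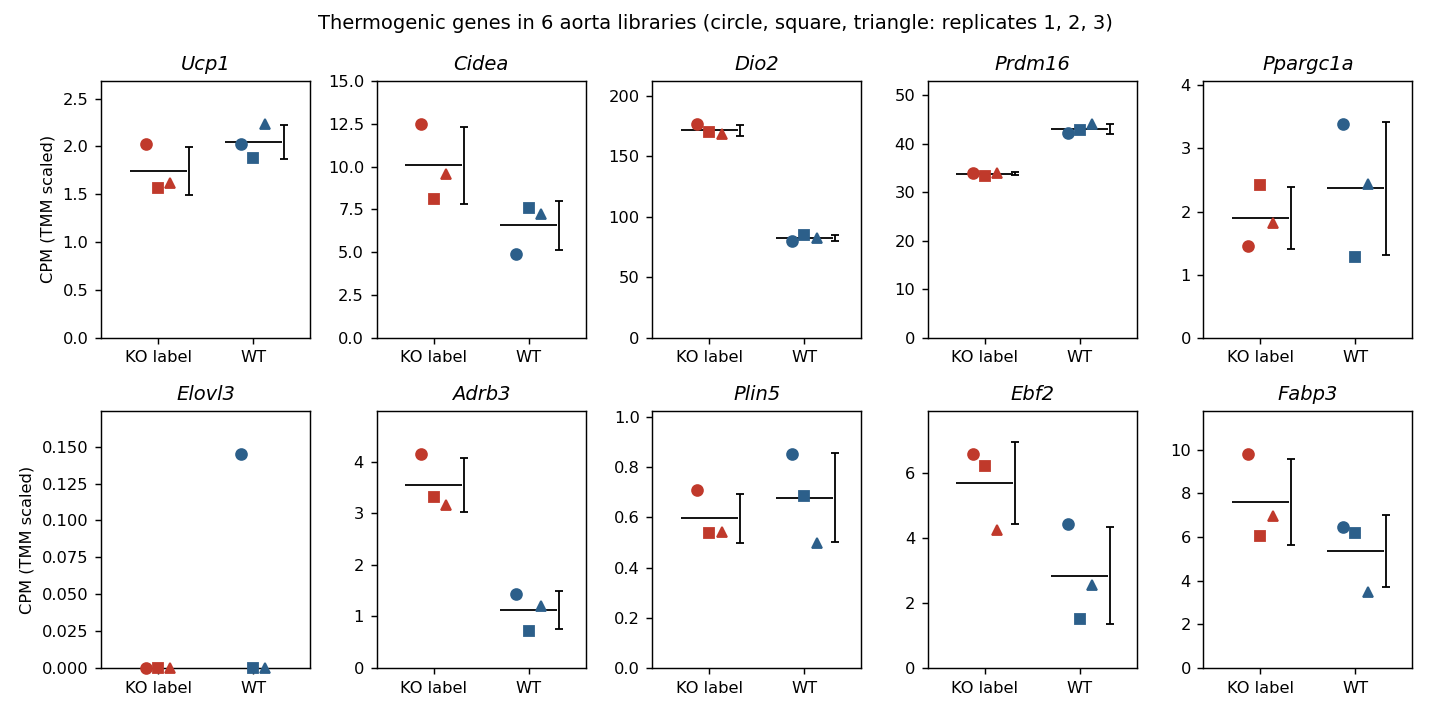
Each panel gives the CPM of 1 gene in the 3 labelled knockout libraries (red, left) and the 3 wild type libraries (blue, right), with the mean and SD in black (not drawn for Elovl3). The groups do not overlap for Dio2, Adrb3, Cidea and Prdm16, and Prdm16 is the one of these that is lower in the labelled knockout, with a sign that turns under library totals.

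The levels of the genes were compared per length, on the deposited FPKM scale (fragment counts adjusted for gene length and library total), within libraries. Dio2 stood highest in all 6 libraries, at 28.8 ± 0.759 FPKM in labelled knockout and 10.4 ± 0.273 FPKM in wild type libraries (SD, n = 3 each). Fabp3 (9.0 ± 2.32 FPKM in labelled knockout, 4.78 ± 1.47 in wild type) and Cidea (8.81 ± 1.95 and 4.32 ± 0.961) followed, with ranges that overlapped in each group. Prdm16 lay at 3.53 ± 0.0382 FPKM in labelled knockout and 3.39 ± 0.0825 in wild type, clear of Cidea in labelled knockout but not in wild type. The lower part of the order began with Ucp1, which had 1.03 ± 0.149 FPKM in labelled knockout and 0.918 ± 0.0794 in wild type. Adrb3 (1.02 ± 0.155 and 0.241 ± 0.0778) overlapped Ucp1 in labelled knockout and lay below it in wild type, where it overlapped Ebf2. Ppargc1a and Plin5 lay between 0.141 and 0.375 FPKM and could not be set in order, and Elovl3 was listed at 0 in 5 libraries. Among the 36453 genes detected in any library, the mean level of Dio2 lay above 96.5%, that of Prdm16 above 82.6%, Ucp1 above 68.6%, Adrb3 above 64.8% and Plin5 above 56.8%.

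Set against the name of brown adipocyte genes, these levels were mixed. Cidea and Fabp3 lay above 89.5% and 90.0% of detected genes. Ucp1 and Elovl3, both defining for active brown fat, lay at about 1 FPKM and near 0, and the other brown mitochondrial markers Cox7a1 and Cox8b lay between 0.944 and 2.15 FPKM and between 1.69 and 4.05 FPKM. Adipoq, which encodes the adipocyte hormone adiponectin, reached 21.6 to 24.6 FPKM in labelled knockout and 9.05 to 9.49 in wild type, and the smooth muscle actin gene Acta2 lay between 3290 and 3570 FPKM over all libraries. The developmental brown fat genes Zic1 and Lhx8 lay at 0 to 0.249 CPM and 0.127 to 0.264 CPM. A floor of 12 counts, or 3 read pairs, corresponds to 0.137 to 0.218 CPM in a library (counting error only). In what follows they are called thermogenic genes, by their known function.

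**Figure D2:**
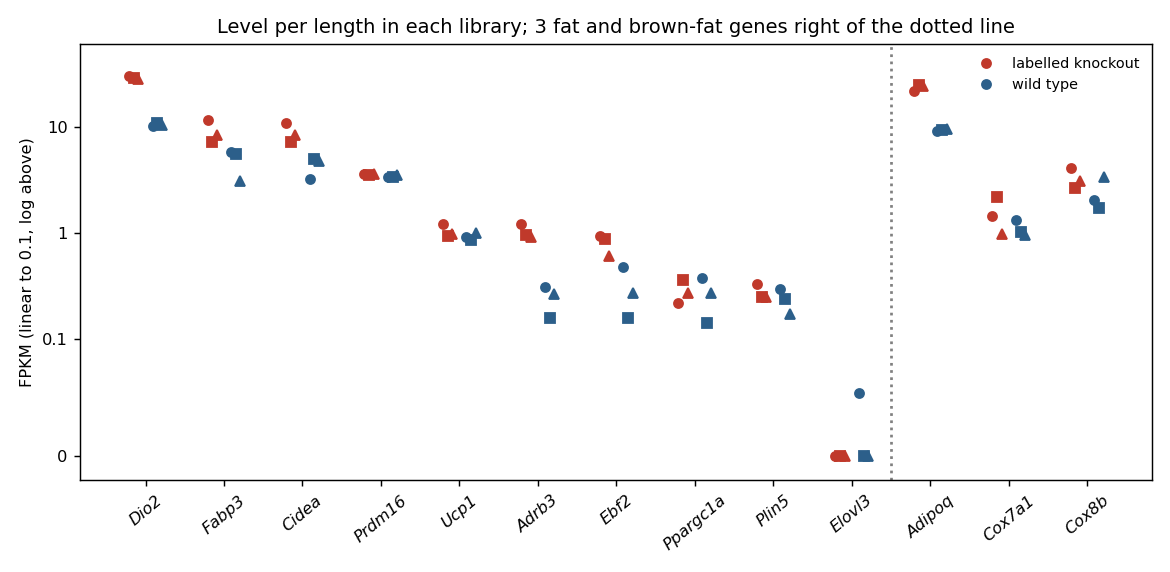
FPKM of the 10 genes in each library, in order of their mean, with Adipoq and the brown fat mitochondrial genes Cox7a1 and Cox8b right of the dotted line; the axis is linear up to 0.1 and logarithmic above. Labelled knockout libraries are red and stand left of wild type libraries in blue. Dio2 is highest in each library, Ucp1 stays near 1 FPKM, and Elovl3 is at 0 in all but 1 wild type library.

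Ucp1 encodes the uncoupling protein that defines brown fat. The gene spans bases 83290352 to 83298452 of chromosome 8 (plus strand); coordinates are those deposited, which match GENCODE M21 gene models on GRCm38 for 8 of the 10 genes. Its level was 2.03, 1.57 and 1.62 CPM in labelled knockout libraries and 2.03, 1.88 and 2.24 CPM in wild type libraries. The groups overlapped, with labelled knockout 1 as high as wild type 1. The log2 fold change was -0.24 (SE 0.25, edgeR adjusted p = 0.557), with a 95% interval from -0.79 to 0.32, and Ucp1 had 107 to 163 counts per library. The fitted sign turned with library totals (0.17). Of the mitochondrial relatives, Ucp2, which is common in immune and other cells, fell to 41.97 ± 1.68 CPM, against 73.41 ± 3.68 CPM in wild type. Its log2 fold change was -0.81 (SE 0.06, edgeR adjusted p = 1.26e-06). Ucp3, the form of skeletal muscle and brown fat, had 0.330 ± 0.161 CPM in labelled knockout and 0.199 ± 0.188 CPM in wild type. The groups overlapped for Ucp3, without a call (log2 fold change 0.73, SE 0.896, edgeR adjusted p = 0.62). Its wild type counts were 23, 5 and 6, in part under the floor stated above.

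Adrb3 encodes the beta-3 adrenergic receptor of adipocytes and spans bases 27225776 to 27250616 of chromosome 8 (minus strand). It had 4.15, 3.32 and 3.17 CPM in labelled knockout and 1.43, 0.721 and 1.21 CPM in wild type libraries. Every labelled knockout library lay above every wild type library, with the highest value in labelled knockout 1 and the lowest in wild type 2. The rise was 3.16-fold, the largest among the 9 genes, and it passed edgeR's test (adjusted p = 0.00161, log2 fold change 1.66 with an SE of 0.29) and the test in all 16 alternatives that gave it a value. Of its exon bases, 24.9% are overlapped by Gm45470 on the opposite strand, which had 37 to 64 counts in labelled knockout and 0 to 15 in wild type. The sources used here give no strand setting for the counting, so reads of the pair cannot be told apart. Adrb1, which encodes the beta-1 receptor, had 1.05 ± 0.437 CPM in labelled knockout and 0.341 ± 0.205 CPM in wild type and did not pass (edgeR adjusted p = 0.0543).

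Dio2 encodes the type 2 deiodinase, which converts thyroxine into active thyroid hormone within the cell, and spans bases 90724552 to 90738438 of chromosome 12 (minus strand). It had 177.0, 169.9 and 168.2 CPM in labelled knockout and 80.22, 84.64 and 82.25 CPM in wild type libraries. The groups lay far apart, and the SD was 4.64 CPM in labelled knockout and 2.21 CPM in wild type. Dio2 rose 2.08-fold (edgeR adjusted p = 5.05e-09, log2 fold change 1.06 with an SE of 0.04), and its log2 fold change stayed between 1.04 and 1.47 over 17 alternatives, with a call in each. It supplied 71.3% to 73.4% of the summed CPM of the 10 genes in labelled knockout libraries and 54.9% to 57.5% in wild type libraries. The summed CPM was 236.6 ± 9.98 in labelled knockout and 146.5 ± 0.728 in wild type, but without Dio2 the other 9 genes summed to 64.93 ± 5.4 and 64.09 ± 1.62 CPM. Prdm16, which fell on the TMM scale, made the largest part of that remainder, with 33.79 CPM in labelled knockout and 43.05 CPM in wild type. Near equal sums thus do not mean that the other genes stayed level, as Adrb3 and Cidea rose.

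The start regions of Dio2 and Ucp1 are shown because both genes are known to answer to cyclic AMP in brown fat, while here Dio2 rose and Ucp1 did not pass the test. The windows run from 250 bases before to 50 bases after the RefSeq start on GRCm38.p6, read along the gene, and capitals mark matches to the motifs searched. That of Dio2 is chr12:90738989-90739288 on the minus strand, and its start lies upstream of the one in the deposited gene model. The window of Ucp1 is chr8:83290098-83290397 on the plus strand.
Dio2: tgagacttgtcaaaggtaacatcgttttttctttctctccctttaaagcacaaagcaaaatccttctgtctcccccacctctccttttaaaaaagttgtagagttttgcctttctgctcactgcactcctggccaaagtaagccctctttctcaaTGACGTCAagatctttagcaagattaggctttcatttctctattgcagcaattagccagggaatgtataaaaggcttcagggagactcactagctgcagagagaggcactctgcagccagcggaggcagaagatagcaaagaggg
Ucp1: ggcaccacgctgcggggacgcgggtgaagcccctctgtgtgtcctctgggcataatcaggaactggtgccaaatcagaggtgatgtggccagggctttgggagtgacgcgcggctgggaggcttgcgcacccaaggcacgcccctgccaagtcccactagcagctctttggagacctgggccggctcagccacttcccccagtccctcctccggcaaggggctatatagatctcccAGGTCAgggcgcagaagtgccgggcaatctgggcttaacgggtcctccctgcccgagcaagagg
The Dio2 window holds 1 match to the cyclic AMP response element TGACGTCA, at position -95 from the start, a match found in 1.79% of 32851 windows of the same length. The Ucp1 window holds 1 match to AGGTCA, a core recognised by many nuclear receptors, at position -14, a match found in 16.3% of windows. The ERR element TCAAGGTCA (0.423% of windows; it contains AGGTCA) and the EBF core CCCNNGGG (13.7%) were searched on both strands as well and had no match in either window. Windows were held for 6 of the 10 genes. Among the others, Plin5 had an AGGTCA match in each of its 2 windows, at positions -170 and 13, and those of Prdm16, Ppargc1a and Fabp3 had no match. These are matches of letters only, sites outside the windows were not searched, and a part of the motifs in the changes was not tested. The windows differed in CpG content, with 3 CpG in that of Dio2, 15 in Ucp1, 22 in Fabp3 and 24 in Prdm16, where the median window has 7.

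Other thyroid hormone genes, picked from the lists after their values were seen, stood beside Dio2. Thrb, which encodes the thyroid hormone receptor beta, had 57.88, 58.44 and 58.18 CPM in labelled knockout and 19.43, 32.74 and 39.0 CPM in wild type libraries. It rose by a log2 fold change of 0.93 (SE 0.18, edgeR adjusted p = 0.0034), with wild type libraries that differed among themselves far more than labelled knockout ones. The receptor gene Thra rose by 0.24 (SE 0.04, edgeR adjusted p = 0.001). Dio3, the deiodinase that inactivates thyroid hormone, had 3 to 17 counts in labelled knockout and 24 to 50 in wild type libraries, without a call (edgeR adjusted p = 0.052), and Dio1 did not pass either (edgeR adjusted p = 0.887).

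The 3 transcription regulators took different courses. Prdm16, a zinc finger protein that directs precursors to the brown fat fate, spans bases 154316125 to 154636866 of chromosome 4 (minus strand). It had 33.92, 33.43 and 34.02 CPM in labelled knockout and 42.21, 42.80 and 44.14 CPM in wild type libraries. The groups did not overlap, and the log2 fold change was -0.35 (SE 0.05, edgeR adjusted p = 0.000681). This fall is smaller than the shift between scalings: with library totals the value was 0.06 (edgeR adjusted p = 0.402). On the FPKM scale, which also divides by the library total, the groups lay at 3.49 to 3.56 and 3.32 to 3.48. Prdm16 kept its call in 14 of 17 alternatives, among them library totals without mitochondrial genes and their nuclear copies. The sign turned in 3, library totals and the fits to FPKM values. Leaving out single libraries gave log2 fold changes from -0.359 to -0.328.

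Ebf2 (chromosome 14, 67233292 to 67430918, plus strand), a helix-loop-helix factor that marks brown fat precursors, had 6.58, 6.21 and 4.24 CPM in labelled knockout and 4.44, 1.51 and 2.56 CPM in wild type libraries. Labelled knockout 3 lay just below wild type 1, so the groups overlapped. The log2 fold change of 1.0 (SE 0.34, 95% interval 0.26 to 1.74) narrowly missed the threshold (edgeR adjusted p = 0.052), and it passed in 8 of 16 alternatives. Leaving out 1 library at a time gave Ebf2 values from 0.70 to 1.48, with edgeR adjusted p from 0.00686 (without wild type 1) to 0.163 (without labelled knockout 1). Ppargc1a (chromosome 5, 51454250 to 51567704, minus strand), which encodes the coactivator PGC-1alpha that drives mitochondrial gene expression, had 1.46, 2.42 and 1.83 CPM in labelled knockout and 3.39, 1.28 and 2.44 CPM in wild type libraries. Its wild type values spanned the whole range of the labelled knockout, with a log2 fold change of -0.32 (SE 0.36, edgeR adjusted p = 0.578). Without wild type 1, the fitted value of Ppargc1a was 0.03.

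Among the lipid droplet genes, Cidea (chromosome 18, 67343604 to 67367785, plus strand) had 12.51, 8.12 and 9.60 CPM in labelled knockout and 4.90, 7.58 and 7.22 CPM in wild type libraries. CIDEA sits on lipid droplets and promotes their fusion, and it is a marker of brown and beige fat in mice. The gap between the lowest labelled knockout library and the highest wild type library was narrow, and the rise of 1.53-fold (log2 fold change 0.62, SE 0.20) passed only just under the threshold (edgeR adjusted p = 0.0463). The call was lost in 6 of 17 alternatives, among them those without labelled knockout 1 (log2 fold change 0.44), labelled knockout 3, wild type 1 or wild type 3, with edgeR adjusted p from 0.0672 to 0.199 over these and that with no filter on low counts (0.0663). Plin5 (chromosome 17, 56111601 to 56117596, minus strand), the perilipin that links droplets to mitochondria, had 32 to 57 counts per library and 0.709, 0.539 and 0.540 CPM in labelled knockout, against 0.852, 0.686 and 0.497 CPM in wild type, without a call (log2 fold change -0.19, SE 0.45, edgeR adjusted p = 0.819). Its relatives Plin1 and Plin4 of fat cells rose, Plin1 to 11.1 ± 1.35 CPM against 5.06 ± 0.804 CPM in wild type (edgeR adjusted p = 0.000344), and Plin2 fell by 0.43 on the log2 scale (-0.02 with library totals).

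For fatty acid handling, Fabp3 (chromosome 4, 130308595 to 130315463, plus strand), which encodes a carrier of fatty acids in heart, muscle and brown fat, had 9.80, 6.05 and 6.95 CPM in labelled knockout and 6.45, 6.19 and 3.46 CPM in wild type libraries. Its groups overlapped (log2 fold change 0.50, SE 0.25, edgeR adjusted p = 0.184). A pseudogene, Fabp3-ps1, shares 402 bases of the 823-base Fabp3 transcript at 99.3% identity and had 6 to 27 counts in labelled knockout and 5 to 46 in wild type. On the opposite strand, Zcchc17 and Gm10570 overlap 19.6% of the exon bases of Fabp3. Zcchc17 had 1805 to 1869 counts in labelled knockout and 986 to 1500 in wild type, and Gm10570 had 4 to 18 and 16 to 30. The counts of Fabp3 are therefore uncertain. Elovl3 (chromosome 19, 46131897 to 46135694, plus strand), an elongase of very long chain fatty acids that cold induces in brown fat, had 0 counts in all labelled knockout libraries and 8, 0 and 0 counts in wild type libraries. Both groups were under the floor, so no fold is given. Opposite-strand genes also overlap 6.12% of the exon bases of Ebf2, 1.72% of Dio2, 1.17% of Prdm16 and 0.506% of Elovl3.

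**Figure D3:**
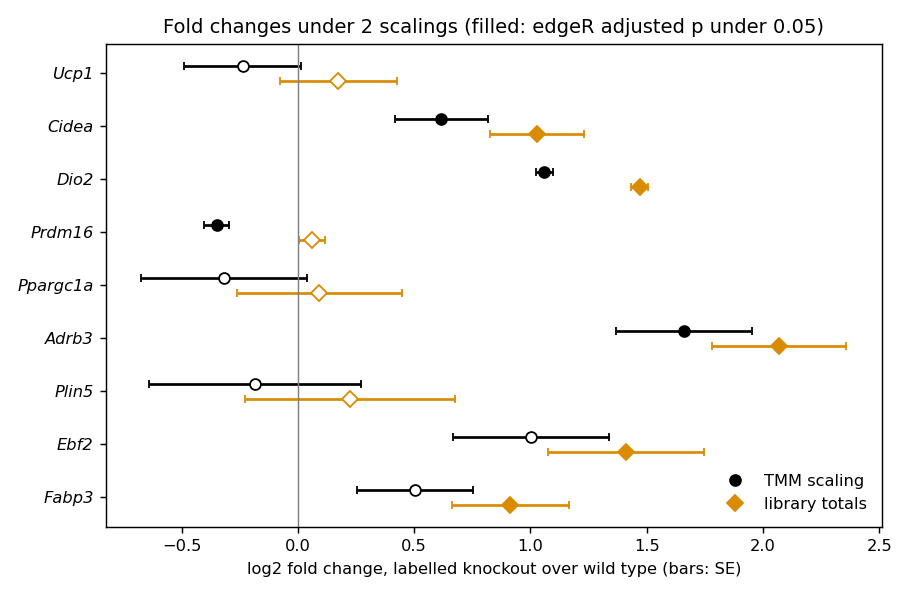
Log2 fold changes of the 9 tested genes, labelled knockout over wild type, with SE as bars, under TMM scaling (black circles) and library totals (orange diamonds); filled symbols passed edgeR's test. Dio2, Adrb3 and Cidea are to the right of 0 with both scalings, and Prdm16, Ucp1, Ppargc1a and Plin5 change sign.

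The genes varied together within groups only in part. Among the 9 that were above 0 in labelled knockout libraries, labelled knockout 1 was the highest of its group for 7. The same library was the highest for 6 of 30 other brown and beige marker genes and for 5 of 24 adipocyte markers, and its Adipoq value, 30.64 CPM, was the lowest of its group. In wild type, library 1 was the highest for 6 of 10. As to likeness over the 6 libraries, the tested genes closest to Ucp1 in centred log2(CPM + 1) values were Papola, Actg-ps1 and Gm11793, at Euclidean distances of 0.0474, 0.0542 and 0.0585. Adding 1 CPM shrinks the differences of rare genes, so a small distance does not show a shared course. Gm11793 had means of 0.0742 CPM in labelled knockout and 0.189 CPM in wild type, near the floor, with a log2 fold change of -1.34. Actg-ps1 had 0.413 and 0.579 CPM.

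Adipocyte transcripts moved as well. Of 24 adipocyte markers, 12 rose (50.0%), none fell and 12 did not pass edgeR's test. Among all tested genes, 13.2% were called higher. The median log2 fold change of the markers was 0.38. Their summed CPM ran from 2033 to 2062 in labelled knockout and from 1621 to 1648 in wild type libraries. At an unadjusted p of 0.05 the split was 14 higher and 1 lower, by DESeq2 it was 13 and 1, and with library totals 18 and 0. The 4 with the smallest p were Cfd (adipsin, log2 fold change 0.85), the fatty acid transporter Cd36 (0.50), Plin4 (0.35) and Adipoq (0.93). Among the 12 without a call, Slc2a4 (-0.25), Cidec (-0.24), Fasn (-0.08), Cebpa (-0.05), Acsl1 (-0.035) and Pnpla2 (-0.032) lay below 0. Adipoq had 33.24 ± 2.27 CPM in labelled knockout and 17.48 ± 0.406 CPM in wild type. Fabp4, the adipocyte and endothelial fatty acid binding protein, had 596.6 ± 2.28 and 483.1 ± 16.9 CPM (log2 fold change 0.30, edgeR adjusted p = 5.15e-06).

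Set against Adipoq in the same library, a percentage that does not depend on the scaling, Ucp1 amounted to 6.62%, 4.51% and 4.73% of the Adipoq CPM in labelled knockout libraries and 11.9%, 10.7% and 12.6% in wild type libraries. The 2 groups were well apart, by -1.10 on the log2 scale with 0.5 CPM added to each (exact permutation test, two-sided, p = 0.1, the smallest that 3 against 3 libraries can give). With Fabp4 in place of Adipoq the difference was -0.50, also without overlap (exact permutation p = 0.1). Both markers rose (Adipoq by 0.93 and Fabp4 by 0.30 on the log2 scale), while Ucp1 alone had no call. Of the 24 adipocyte markers, 12 had no call, so these differences hold for the markers used here and not for adipocyte markers at large. Cidea amounted to 40.8%, 23.3% and 28.0% of Adipoq in labelled knockout and 28.8%, 43.1% and 40.5% in wild type (difference -0.32, exact permutation p = 0.2), and this difference turned to 0.28 against Fabp4. For Adrb3 the shares were 13.6%, 9.54% and 9.25% in labelled knockout, against 8.41%, 4.1% and 6.8% in wild type, without overlap. On the log2 scale the difference for Adrb3 depended on the added value: with 0.5 CPM added it was 0.43 and the groups overlapped (exact permutation p = 0.3), with 0.1 CPM added it was 0.70 (exact permutation p = 0.1), and against Fabp4 with 0.5 CPM added it was 1.03 (exact permutation p = 0.1). The 10 genes together, relative to the summed adipocyte markers, differed by 0.36, and by -0.31 without Dio2, values given with no test since the genes were chosen as a set. In the sum without Dio2, Prdm16, which fell on the TMM scale, had the largest CPM. Ratios of this kind depend on the lengths of the genes on both sides and are compared between libraries only.

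**Figure D4:**
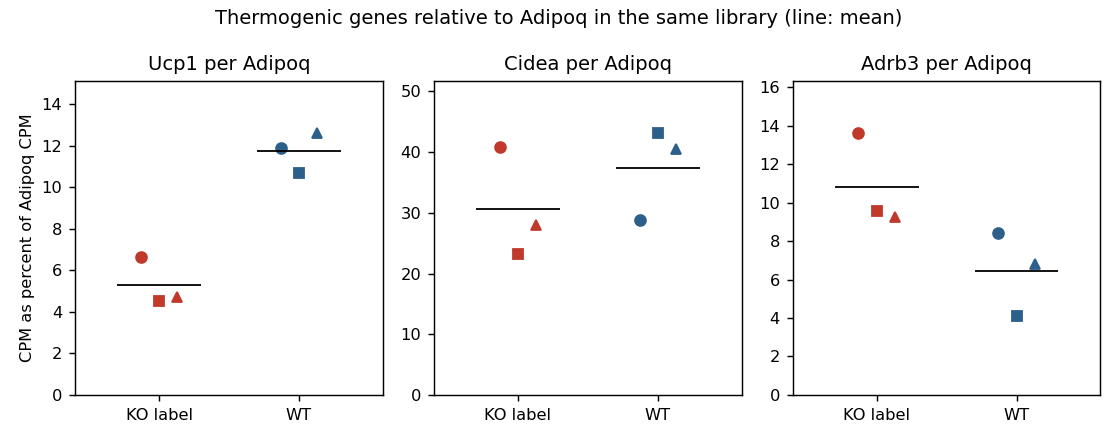
CPM of Ucp1, Cidea and Adrb3 as percent of the Adipoq CPM in the same library, labelled knockout (red, left) and wild type (blue, right), with the mean as a line. Ucp1 lies between 4.51% and 6.62% in labelled knockout and between 10.7% and 12.6% in wild type, those of Adrb3 lie between 9.25% and 13.6% in labelled knockout and between 4.1% and 8.41% in wild type, and those of Cidea overlap between the groups.

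Other genes of the programme were described in lists. For these and the lists after them, the background is all 20132 tested genes, of which 13.2% were called higher and 11.5% lower. With library totals, 9425 of all tested genes were called higher and 768 lower. Of 30 further brown and beige marker genes, 27 were tested, 6 rose (22.2%) and 2 fell (7.41%), with a median of 0.05; library totals gave 11 and 2, and leaving out labelled knockout 3 gave 3 and 2. The 4 with the smallest p were the beige markers Tnfrsf9 (0.0586 ± 0.0509 CPM in labelled knockout, near the floor, and 2.27 ± 0.407 CPM in wild type), which activated T cells also express, and Tbx1 (6.17 ± 1.56 and 2.35 ± 0.483 CPM), the interferon-induced Epsti1 (log2 fold change -1.11) and Acot11, a thioesterase of brown fat (0.29). Cox7a1 (0.839 ± 0.329 and 0.810 ± 0.132 CPM) and Cox8b (1.21 ± 0.272 and 1.16 ± 0.426 CPM) had close means in the groups. Cpt1b, the carnitine transferase of muscle and brown fat, was uneven within both groups, with 0.485, 2.01 and 0.240 CPM in labelled knockout and 7.69, 0.510 and 2.03 CPM in wild type.

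Of 31 transcription regulators of thermogenesis, 8 rose (25.8%) and 4 fell (12.9%), with a median of 0.09, or 24 and 2 with library totals. The smallest p belonged to the nuclear receptor gene Nr4a1 (log2 fold change -0.82), Gadd45g (0.55), Hoxc10 (0.12 ± 0.036 CPM in labelled knockout and 2.10 ± 1.06 in wild type), a posterior homeobox gene known to restrain browning in mice, and Ybx1 (-0.23, but 0.18 with library totals). Pparg, the master regulator of adipocytes, rose by 0.47 (edgeR adjusted p = 0.0469). Of 20 genes of adrenergic signalling and lipolysis, 10 rose (50.0%) and 1 fell (5.0%), with a median of 0.14, or 18 and 0 with library totals. Lipe, which encodes hormone-sensitive lipase, had 26.99 ± 0.447 CPM in labelled knockout and 16.97 ± 1.82 CPM in wild type (log2 fold change 0.67, edgeR adjusted p = 0.000227), and the glycerol channel gene Aqp7 rose by 1.03 and Gnas, the stimulatory G protein subunit, by 0.11. Of 28 relatives of the 10 genes in the table, 26 were tested, 5 rose (19.2%) and 4 fell (15.4%), or 13 and 1 with library totals and 8 and 8 by DESeq2, the smallest p being those of Ucp2, Plin4, Fabp4 and Plin2. Leaving out labelled knockout 2 or wild type 2 left 3 of them higher, and leaving out labelled knockout 3, wild type 1 or wild type 3 left 2 lower. Plin1, Plin4, Fabp4, Cidec, Lipe, Pnpla2, Pparg, Cebpa and S100b stand on more than 1 list.

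Terms of the deposited annotation were looked up after values were seen. The gene ontology term for brown fat cell differentiation was attached to 35 genes, all tested, of which 9 rose (25.7%) and 6 fell (17.1%), or 21 and 2 with library totals. It holds 5 of the 10 genes, Ucp1, Prdm16, Ppargc1a, Adrb3 and Ebf2. The KEGG thermogenesis pathway, which includes respiratory chain subunits, held 222 tested genes, 26 higher (11.7%) and 42 lower (18.9%), with a median of -0.08. Library totals turned that to 151 higher and 17 lower, with a median of 0.33.

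**Figure D5:**
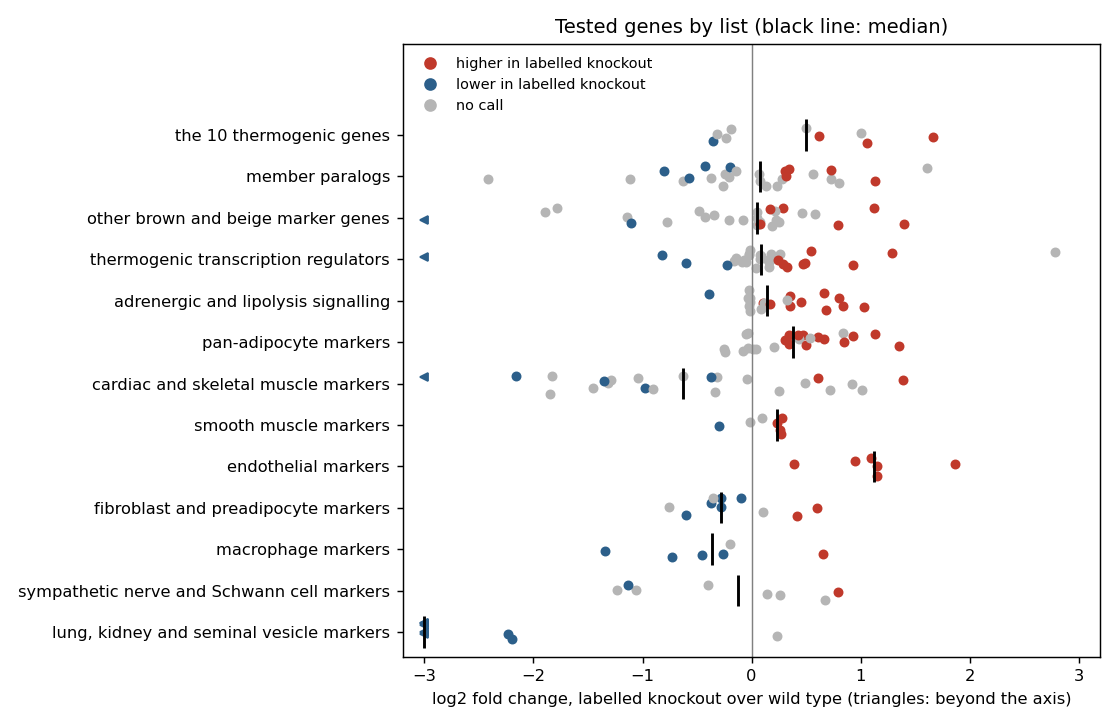
Log2 fold changes (labelled knockout over wild type, TMM scale) of the tested genes in each list, red where called higher, blue where called lower and grey otherwise, with the median as a black line. Genes at 0 counts in a group are drawn at a bound from a floor of 12 counts per library, and triangles lie beyond the axis. The adipocyte and endothelial lists hold no gene called lower; library totals move every point up by about 0.41, and the medians of the fibroblast, macrophage and nerve lists then lie above 0.

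Markers of other cells in the tissue also differed between the groups, in directions that varied by list. Among all tested genes, 13.2% were called higher and 11.5% lower, and with library totals 9425 genes were higher and 768 lower. All 6 endothelial markers rose (median 1.12), with summed CPM of 688.6 to 692.4 in labelled knockout and 376.7 to 384.2 in wild type, and the smallest p belonged to Vwf (1.10) and Tie1 (1.15). Of 7 smooth muscle markers, 4 rose and 1 fell, or 7 and 0 with library totals (summed CPM 19830 to 19950 and 20380 to 20560), with Acta2 at -0.30 (0.11 with library totals) and Myh11 at 0.27. Of 10 fibroblast and preadipocyte markers, 2 rose and 5 fell, or 6 and 1 with library totals (1715 to 1741 and 1937 to 1967), with Ly6a at -0.60 and Dpt at -0.37 (0.04 with library totals). Macrophage markers counted 1 higher and 4 lower of 6, or 2 and 2 with library totals (158.1 to 161.1 and 191.0 to 199.2), with Cd68 at -1.34 and Cd163 at 0.66. Of 8 tested nerve and Schwann cell markers, 1 rose and 1 fell, or 2 and 1 with library totals (24.7 to 26.25 and 25.82 to 26.45), with S100b at 0.80, and Th, which marks sympathetic nerves, stayed at or under 0.0963 CPM on average in both groups.

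Heart and skeletal muscle share Fabp3, Ppargc1a, Plin5 and Cox8b with brown fat. Of 23 tested muscle markers, 2 rose and 5 fell, or 5 and 2 with library totals and 4 and 8 by DESeq2 (summed CPM 76.66 to 77.72 in labelled knockout and 78.26 to 89.13 in wild type), with Acta1 at -4.05, Tnnt2 at 0.61, Ryr2 at -0.37 (0.04 with library totals) and Myl7 at 30 to 65 counts in labelled knockout against 0 in wild type, at least 2.63-fold higher against a floor of 12 counts per library. The 5 lower calls among muscle markers became 1 to 3 when labelled knockout 1 or 3 or wild type 2 or 3 was left out. Of 8 tested lung, kidney and seminal vesicle markers, 7 fell and none rose by edgeR, DESeq2 or an unadjusted p of 0.05, with summed CPM of 1.1 to 1.63 in labelled knockout and 30.55 to 34.21 in wild type, and the smallest p belonged to Aqp2 (-5.54) and Sftpc (-5.87). The part of any of these cell types, and of the adipocyte content, in the changes of Dio2, Adrb3, Cidea and Prdm16 was not tested.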

How the data were processed

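RNA-seq of 6 aorta samples was deposited as 1 table with 2 kinds of value per gene and library. Its estimated counts, whole numbers as deposited by the authors, and its FPKM, also made by the authors, were taken as they stood; per the submitters' processing notes, Bowtie 0.12.2, HISAT2 2.0 and the build mm8 were used, with no role given, while 86.3% of shared gene IDs in the table carry GRCm38 coordinates of GENCODE M21. Rounding changed 0 counts, and 0 rows lacked a gene name. Genes past edgeR's filterByExpr (20132) were tested with the quasi-likelihood test of edgeR 4.0.16 (R 4.3.3, TMM scaling, 3 libraries per group), with Benjamini-Hochberg adjustment over all of them and a threshold of 0.05. A gene counts as not overlapping where all values of a group lie above all of the other. Expression ratios within a library used an exact permutation test (SciPy 1.17.1). Copies of the genes were sought with BLAST+ 2.17.0 at 97% identity over 100 bases or more, and promoter windows are from RefSeq. Alternatives used limma 3.58.1 and DESeq2 1.42.0; the edgeR procedure was tested on simulated data. The 10 genes and the 12 other lists were chosen with earlier results of these data known. Named were the 10 genes, Josd2, Adipoq, Fabp4, Ucp2 and Ucp3, the 4 genes of smallest p per list (2 for the smooth muscle, endothelial, fibroblast, macrophage, nerve and lung, kidney and seminal vesicle lists) and the 3 genes closest to Ucp1; Thrb, Thra, Dio1, Dio3, Adrb1, Plin1, Cpt1b, Cox7a1, Cox8b, Zic1, Lhx8, Th, Pparg and the annotation terms were added after their values were seen. The floor of 12 counts stands for 3 read pairs, and floors cover counting error only. Some genes that this rule names are not reported here.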

Additional observations from a re-analysis of the deposited data

How the results depend on the processing

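The calls of Dio2 and Adrb3 held in each of the alternatives that gave them a value (17 and 16). The scaling moved the counts most: of the 10 genes, library totals and limma on log2(FPKM + 1) or log2(FPKM + 0.1) each called 5 higher and 0 lower, in place of 3 and 1. Over all tested genes these 3 settings gave 9425 higher and 768 lower, 9447 and 867, and 9330 and 866, in place of 2658 and 2323, and over the other lists 104 and 18, 103 and 19, and 102 and 18, in place of 51 and 34. In the same order of settings, the log2 fold change turned to 0.173, 0.082 and 0.15 for Ucp1, 0.061, 0.046 and 0.058 for Prdm16, 0.091, 0.023 and 0.108 for Ppargc1a, and 0.224, 0.047 and 0.176 for Plin5. Library totals without mitochondrial genes and their nuclear copies, chosen after seeing the data, gave 4 higher and 1 lower of the 10 genes and 2966 and 2070 of all genes. With Fabp4 in place of Adipoq the difference was -0.495 for Ucp1, 0.279 for Cidea and 1.034 for Adrb3. Leaving out 1 library at a time gave log2 fold changes from -0.611 to 0.031 for Ppargc1a and from -0.364 to 0.017 for Plin5, 2 to 3 of the 10 genes higher and 1 lower, and 1966 to 2429 higher and 1790 to 2044 lower among all genes. Same-numbered samples of the groups did not vary together (correlations of their deviations 0.034, -0.023 and -0.01), so the numbers are only names; a replicate block gave 3 higher and 1 lower of the 10 genes, without Cidea and with Ebf2, and 2464 and 2096 of all genes. DESeq2 called 3510 higher and 3310 lower. A mean FPKM of at least 1 leaves no value for Ucp1, Ppargc1a, Adrb3, Plin5 and Ebf2. Elovl3 lay under the floor, and Plin5 had 32 to 57 counts per library. The cause of these changes beyond the scaling itself was not tested.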
